A study of Homo sapiens with 6 samples.

Results

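The ID (inhibitor of DNA binding) genes and the bone morphogenetic protein (BMP) pathway that controls them were followed across 6 RNA sequencing libraries of MDA-MB-231. The 10 genes were picked by symbol as ID genes, other targets of BMP-activated SMAD proteins, and a ligand, receptors and a SMAD of the pathway: ID1, ID2, ID3, ID4, ATOH8, SMAD6, BMP4, BMPR1A, BMPR2 and SMAD5. All 10 were found among the 20042 genes of the count table, and all 10 passed the filter on low counts that left 12440 genes for testing. They were picked with the difference between the 2 groups of these libraries already known, so their differences are given here as a description, with no test. MDA-MB-231 is an established human breast cancer cell line of mesenchymal character without oestrogen receptor. In 3 cultures the cells carried a control small interfering RNA (siCTRL, genotype labelled WT), and in 3 cultures siRNA-1 against ERBBride, the target RNA of the series (genotype labelled ERBBride knock down). The siRNA dose and the time after transfection remain not given in the sources used here, and with 1 siRNA sequence against the target, effects of the target and of that sequence cannot be told apart. The table held 0 entries named ERBBride, so its knockdown was not analysed here. The labels name the replicates as biological without saying how the cultures were separated, and a p-value then measures only the spread between these samples.

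BMPs are secreted ligands that bring together type I receptors (such as BMPR1A) and type II receptors (such as BMPR2). The receptors phosphorylate SMAD1, SMAD5 and SMAD9, which enter the nucleus with SMAD4 and switch on target genes, of which the ID genes are the textbook example. ID proteins hold a helix-loop-helix domain but no DNA-binding region, so they pair with E proteins such as TCF3 and keep them off their E-box sites. In breast cancer cells the ID genes are known for roles in proliferation, self-renewal and metastasis.

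The promoter windows of the 4 ID genes are shown because 3 of these related genes were higher in every siRNA-1 library and ID2 was not. Each window runs from 250 bases before to 50 bases after a transcription start, 5′ to 3′ on the strand of the gene, and comes from RefSeq on GRCh38.p14. All 10 genes had a window by symbol. The ID1 window lies at chr20:31605039-31605338 (plus strand), that of ID2 at chr2:8681806-8682105 (plus), that of ID3 at chr1:23559452-23559751 (minus) and that of ID4 at chr6:19837120-19837419 (plus). Capitals mark TATAA and CCAAT on either strand (CCAAT reads ATTGG on the other), and both were chosen after the windows were seen.
ID1: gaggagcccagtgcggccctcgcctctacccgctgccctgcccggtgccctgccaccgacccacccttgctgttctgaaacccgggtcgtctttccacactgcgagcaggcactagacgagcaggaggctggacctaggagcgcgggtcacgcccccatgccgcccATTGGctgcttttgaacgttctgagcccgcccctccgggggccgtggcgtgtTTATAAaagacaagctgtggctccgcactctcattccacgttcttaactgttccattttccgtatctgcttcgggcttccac
ID2: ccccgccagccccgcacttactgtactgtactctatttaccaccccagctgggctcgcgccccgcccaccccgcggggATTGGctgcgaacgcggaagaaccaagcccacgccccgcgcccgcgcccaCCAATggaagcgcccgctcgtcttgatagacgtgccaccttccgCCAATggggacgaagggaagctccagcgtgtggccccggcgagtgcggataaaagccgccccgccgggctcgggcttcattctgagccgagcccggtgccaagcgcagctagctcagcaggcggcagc
ID3: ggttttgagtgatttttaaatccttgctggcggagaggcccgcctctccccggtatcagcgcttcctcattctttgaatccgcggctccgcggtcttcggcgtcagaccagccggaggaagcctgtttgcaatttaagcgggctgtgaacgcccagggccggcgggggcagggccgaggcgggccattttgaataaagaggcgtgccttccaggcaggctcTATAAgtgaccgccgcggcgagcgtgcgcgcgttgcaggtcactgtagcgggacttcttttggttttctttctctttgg
ID4: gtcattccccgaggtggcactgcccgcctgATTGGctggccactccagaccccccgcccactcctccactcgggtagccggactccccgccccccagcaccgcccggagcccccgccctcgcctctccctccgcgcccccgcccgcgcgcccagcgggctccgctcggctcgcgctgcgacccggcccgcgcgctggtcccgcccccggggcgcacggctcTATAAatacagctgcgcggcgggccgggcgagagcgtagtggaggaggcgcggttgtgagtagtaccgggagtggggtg
The windows of ID1, ID3 and ID4 held TATAA and that of ID2 did not, beside 20.4% of all 35116 windows. TATAA did not divide the 10 genes by level: ATOH8, SMAD6 and SMAD5, which were higher in siRNA-1 libraries, and BMPR2 had none, while BMPR1A and 1 of the 3 BMP4 windows, whose groups overlapped, held it. Those of ID1, ID2 and ID4 held CCAAT and that of ID3 did not, beside 34.6% of all windows, and of the other 6 genes only SMAD6 held it. The GC-rich motif GGCGCC, known to be bound by SMAD1 and SMAD5, was in 0 of the 4 ID windows and in a window of 3 of the 10 genes (BMP4, BMPR2 and SMAD5), against 19.2% of all windows. That motif followed after 5 bases by GTCT, searched on both strands, was in none of the 12 windows of the 10 genes and in 0.103% of all. The E-box CANNTG was in the windows of ID2 and ID4 but not in those of ID1 and ID3, and 68.7% of all windows held it. Motifs were counted on both strands, GGCGCC is contained in the spaced motif, and in ID1 the TATAA matches of both strands overlap. A match or its absence concerns these letters in these windows only.

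ID3 and ATOH8 had the largest log2 fold changes upwards of all genes tested, in libraries in which most genes differed between the groups. Both passed the filter on low counts through the siRNA-1 libraries, in which they were high, so their ranks are a description. Total counts were 12813706 to 15014434 per library, and levels are CPM, counts per 1e+06 counts of a library after TMM scaling. Differences were fitted over all genes with edgeR's quasi-likelihood test, with Benjamini-Hochberg adjustment and a threshold of 0.05 on the adjusted p. In that fit 62.5% of genes passed, 31.5% as rises and 31.0% as falls. Of the 10 genes 7 passed, 6 upwards and 1 downwards, a count from which nothing is read because the choice of genes used this contrast. The siCTRL and siRNA-1 libraries did not overlap at 7 of the 10 genes, against 67.6% of all genes tested. At 6 genes every siRNA-1 library was above the controls (34.6% of all genes) and at 1 below (33.0%). The library siCTRL 2 stood apart from the other controls on the second principal component (-22.3, against -2.90 to 13.3 for the other 5). Values without it are therefore given for some genes. Markers of the line were present, though lower in siRNA-1 libraries: VIM, CD44, AXL, CAV1 and MSN summed to 6929 to 7256 CPM in siCTRL and 3545 to 3674 CPM in siRNA-1 libraries, while PGR had 0 counts and ESR1 at most 3 per library.

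**Figure D1:**
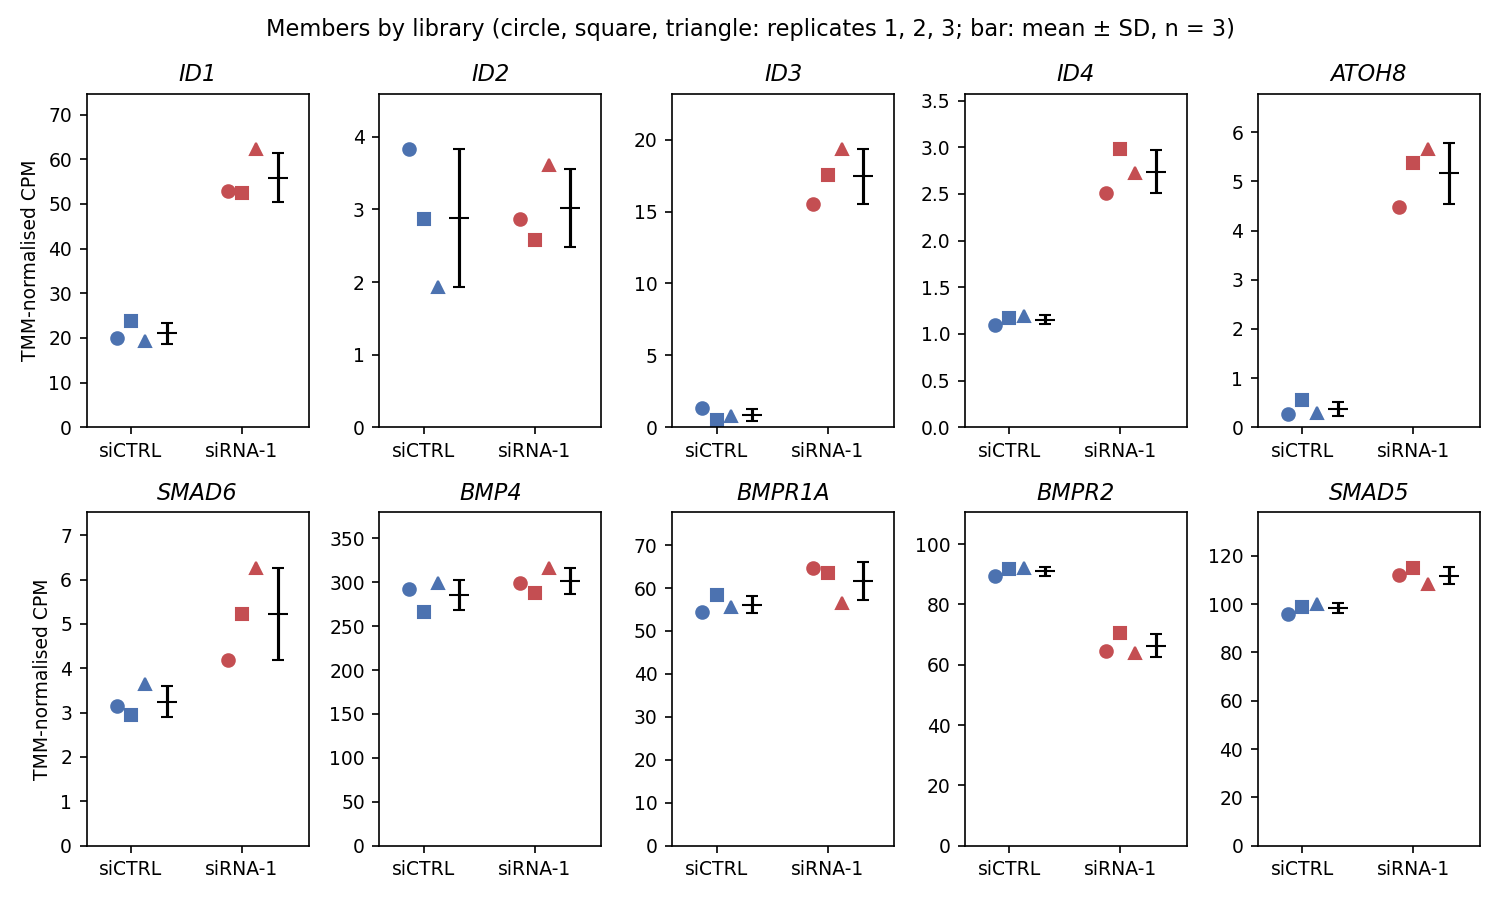
Level of each of the 10 genes in each library, in TMM-scaled CPM, with blue for siCTRL, red for siRNA-1, and the mean ± SD (n = 3) beside each group. ID1, ID3, ID4, ATOH8, SMAD6 and SMAD5 sit higher in all siRNA-1 libraries, BMPR2 sits lower, and ID2, BMP4 and BMPR1A overlap.

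ID3 had the largest log2 fold change of all 12440 genes tested. Its level was 1.30, 0.466 and 0.743 CPM in siCTRL replicates 1 to 3, and 15.5, 17.6 and 19.4 CPM in siRNA-1 replicates 1 to 3. Every siRNA-1 library lay far above every control, and the controls themselves differed widely, with 19, 6 and 10 counts. The group means were 0.837 ± 0.425 and 17.5 ± 1.92 CPM (SD, n = 3), a log2 fold change of 4.34 (SE 0.23) or 20.3-fold. The size moved from 16.6-fold without siCTRL 2 to 28.1-fold without siCTRL 1. ID3 (ENSG00000117318) is a protein-coding gene at chr1:23557918-23559794 on the minus strand in GENCODE release 29 (GRCh38).

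ID1, the family member that is most often measured as a readout of BMP receptor activity, was already well expressed in controls. It stood at 19.9, 23.8 and 19.3 CPM in siCTRL and at 52.9, 52.5 and 62.3 CPM in siRNA-1 libraries. The groups were far apart, and siRNA-1 replicate 3 was the highest of its group. The means were 21.0 ± 2.41 and 55.9 ± 5.53 CPM (SD, n = 3), a difference of 2.66-fold (log2 fold change 1.41, SE 0.099) that ranked 81 from the top among all genes. ID1 (ENSG00000125968) is a protein-coding gene at chr20:31605283-31606515 on the plus strand.

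ID4, which in the breast is known for its role in basal and stem-like cells, was low throughout. Its level was 1.09, 1.16 and 1.19 CPM in siCTRL and 2.51, 2.98 and 2.73 CPM in siRNA-1 libraries. Groups did not overlap, although the values rest on only 15 to 45 counts per library. The means differed by 2.38-fold (log2 fold change 1.25, SE 0.23), from 1.15 ± 0.0491 to 2.74 ± 0.233 CPM. ID4 (ENSG00000172201) lies at chr6:19837386-19840684 on the plus strand.

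ID2 broke the pattern of its family. It had 3.83, 2.87 and 1.93 CPM in siCTRL and 2.86, 2.58 and 3.61 CPM in siRNA-1 libraries. The groups overlapped fully, with the highest and the lowest value both in controls. The log2 fold change was 0.06 (SE 0.26), and its sign turned without siCTRL 3 (-0.16) or without siRNA-1 replicate 3 (-0.085). ID2 (ENSG00000115738) lies at chr2:8678845-8684453 on the plus strand, and 38 of its exonic bases (1.72%) are shared with the antisense gene ID2-AS1. Whether counting used strand is unstated, so reads of the pair cannot be told apart there.

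Per kilobase of annotated exon, which allows genes to be compared, ID1 was the leading ID transcript in both groups and ID3 was second in siRNA-1 libraries but among the lowest in siCTRL. In siCTRL the ID1 level was 17.0 ± 1.95 CPM per kb (SD, n = 3), followed by ID2 at 1.31 ± 0.431. ID4 at 0.491 ± 0.0209 and ID3 at 0.466 ± 0.236 CPM per kb overlapped and could not be ordered. In siRNA-1 libraries ID1 stood at 45.3 ± 4.49 CPM per kb and ID3 at 9.72 ± 1.07. ID2 at 1.37 ± 0.241 and ID4 at 1.17 ± 0.0995 CPM per kb then overlapped. Summed over the 4 genes, the level was 25.9 ± 2.55 CPM in siCTRL and 79.1 ± 7.72 CPM in siRNA-1 libraries, 3.06-fold apart. ID3 made up 1.65% to 4.97% of that sum in siCTRL and 21.0% to 23.2% in siRNA-1 libraries, and ID1 the largest share in all 6. Lengths are the union of exons in GENCODE release 29, an upper bound on any one transcript, so a level per kb is a lower estimate for genes with many isoforms.

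**Figure D2:**
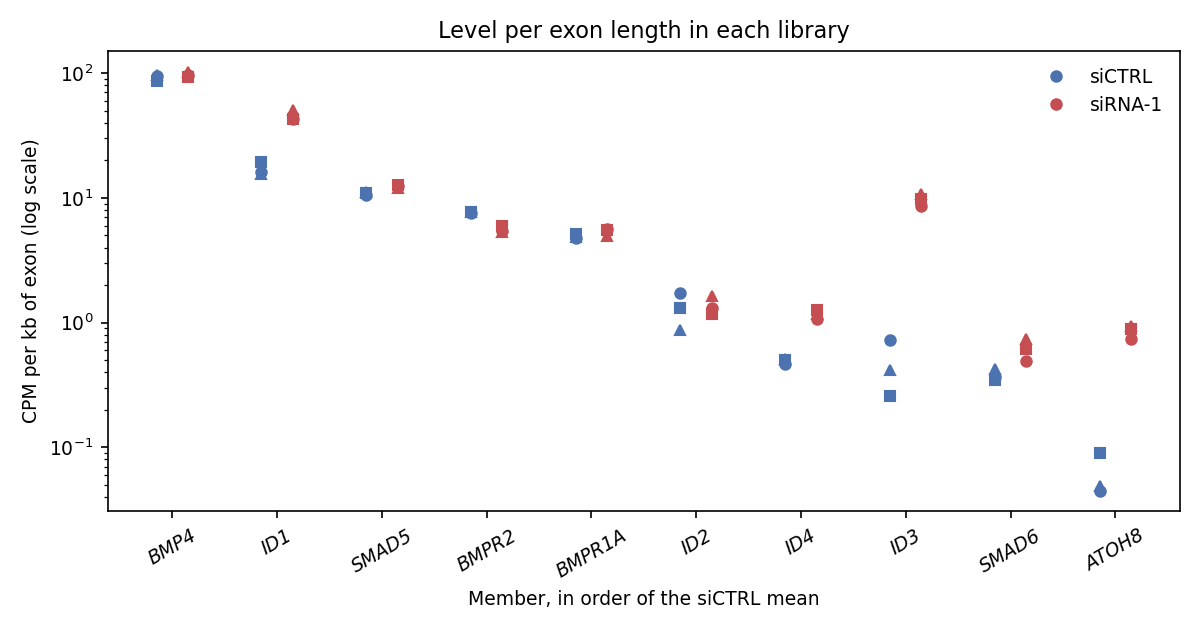
Level of each gene in CPM per kilobase of exon (log axis), ordered by the siCTRL mean, with 1 point per library (blue siCTRL, red siRNA-1, circle, square and triangle for replicates 1, 2 and 3). ID3 moves from 0.466 to 9.72 CPM per kb and ATOH8 from 0.0612 to 0.850, while BMP4 remains above all others.

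ATOH8 encodes a basic helix-loop-helix factor that is known as a BMP and SMAD target in endothelial and liver cells. It was close to the detection limit in controls, with 0.274, 0.544 and 0.297 CPM (4, 7 and 4 counts), and reached 4.47, 5.37 and 5.66 CPM in siRNA-1 libraries (64, 81 and 83 counts). The groups were well separated. ATOH8 had the second largest log2 fold change of all genes tested (3.78, SE 0.29, 13.8-fold, from 0.372 ± 0.149 to 5.16 ± 0.618 CPM). Leaving out single libraries moved it between 12.0-fold and 17.5-fold, the latter without siCTRL 2. Over all settings its log2 fold change ran from 3.39 to 4.13. All its control counts were below the filter's minimum of 10, so its siRNA-1 libraries alone brought it into the test. In the shallowest library 3 counts, taken as the floor, equal 0.233 CPM, which covers counting error only. Per kb ATOH8 was the lowest of the 10 genes in siCTRL (0.0612 ± 0.0246) and lay above SMAD6 in siRNA-1 libraries (0.850 ± 0.102 against 0.611 ± 0.121 CPM per kb), the lowest ATOH8 value being just above the highest of SMAD6. In CPM ATOH8 and SMAD6 overlapped there (5.16 ± 0.618 and 5.23 ± 1.04), so that order rests on the exon lengths used. ATOH8 (ENSG00000168874) lies at chr2:85751344-85788066 on the plus strand.

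SMAD6, an inhibitory SMAD that BMP signals induce and that blocks the receptors in turn, was moderately higher. It stood at 3.15, 2.95 and 3.64 CPM in siCTRL and at 4.19, 5.23 and 6.27 CPM in siRNA-1 libraries. The lowest siRNA-1 library lay just above the highest control. The means were 3.25 ± 0.356 and 5.23 ± 1.04 CPM, or 1.61-fold (log2 fold change 0.69, SE 0.20). Without siRNA-1 replicate 3, the highest library, the log2 fold change was 0.54. SMAD6 (ENSG00000137834) lies at chr15:66702228-66782848 on the plus strand.

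The ligand gene differed little. BMP4, a ligand of the BMP2 and BMP4 class, was by far the most abundant of the 10 genes per kb, at 92.7 ± 5.60 in siCTRL and 97.8 ± 4.78 CPM per kb in siRNA-1 libraries. Its level was 292, 266 and 299 CPM in siCTRL and 299.7, 287 and 317 CPM in siRNA-1 libraries, and the groups overlapped. The log2 fold change was 0.08 (SE 0.061) and 0.014 without siCTRL 2, in which BMP4 was lowest. BMP4 (ENSG00000125378) lies at chr14:53949736-53958761 on the minus strand.

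Other BMP-type ligands were scarce and those that passed the test fell. Of 13 further ligand genes, 10 were below the filter with at most 16 counts in any library, and BMP15, GDF2 and GDF6 had 0 counts throughout. Among the 3 tested, 2 fell and 0 rose, beside 31.0% and 31.5% of all genes tested. GDF5, a growth factor of cartilage and joints, fell 3.98-fold from 3.28 ± 0.188 to 0.819 ± 0.195 CPM (adjusted p = 3.2e-05, edgeR). BMP8B fell 1.96-fold from 6.21 ± 0.491 to 3.17 ± 0.427 CPM (adjusted p = 0.000358). BMP2 had a log2 fold change of -0.72 (adjusted p = 0.0749, edgeR), which passed without siCTRL 2 (-0.87, adjusted p = 0.0224) or without siRNA-1 replicate 2 (-1.01, adjusted p = 0.0427), within a range of 0.0224 to 0.274 over all settings run.

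The receptors moved in unlike ways. BMPR2, the type II receptor gene whose loss causes heritable pulmonary arterial hypertension, was the 1 gene of the 10 that was lower, at 89.4, 91.6 and 92.2 CPM in siCTRL and 64.6, 70.6 and 63.9 CPM in siRNA-1 libraries. Its controls agreed closely and no siRNA-1 library came near them. The means were 91.0 ± 1.48 and 66.4 ± 3.70 CPM (log2 fold change -0.46, SE 0.060, 1.37-fold lower). BMPR1A, a type I receptor gene, stood at 54.4, 58.4 and 55.7 CPM in siCTRL and at 64.8, 63.5 and 56.6 CPM in siRNA-1 libraries. Only siRNA-1 replicate 3 lay within the range of the controls, and the log2 fold change was 0.13 (SE 0.069). That value was 0.15 without siCTRL 2 and 0.19 without siRNA-1 replicate 3. Per kb, BMPR2 was above BMPR1A in siCTRL (7.65 ± 0.124 against 4.92 ± 0.179), and in siRNA-1 libraries the pair overlapped (5.58 ± 0.311 and 5.40 ± 0.382 CPM per kb). BMPR1A (ENSG00000107779) lies at chr10:86756601-86932838 and BMPR2 (ENSG00000204217) at chr2:202376936-202567751, both on the plus strand. BMPR1A has the processed pseudogenes BMPR1AP1 and BMPR1AP2, to which some of its reads could be assigned.

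Of the other receptors and co-receptors, 5 of 9 were tested, 1 rose and 0 fell, beside 31.5% and 31.0% of all genes tested. RGMB, a membrane co-receptor that binds BMP ligands, rose 1.79-fold from 86.0 ± 5.48 to 154 ± 4.65 CPM (adjusted p = 3.2e-07, edgeR). The type I receptor gene ACVR1 (log2 fold change 0.13, adjusted p = 0.267) and the type II receptor gene ACVR2A (0.25, adjusted p = 0.0841) did not pass. Without siCTRL 2 the log2 fold change of ACVR1 was 0.011. ACVR2B did not pass either (-0.24, adjusted p = 0.167, edgeR), but did without siCTRL 3 (-0.36, adjusted p = 0.0353, in a range of 0.0353 to 0.687 over all settings). Without siCTRL 2, in which ACVR2B was highest, its log2 fold change was only -0.049. ACVR2A passed without siCTRL 3 (0.32, adjusted p = 0.0478) and with no scaling beyond library size (0.29, adjusted p = 0.0484), in a range of 0.0478 to 0.285. ACVRL1, the type I receptor of endothelial cells, had 0 counts in all libraries.

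SMAD5, one of the SMADs that BMP receptors phosphorylate, was slightly higher. It had 96.1, 98.9 and 100.1 CPM in siCTRL and 112, 115 and 108 CPM in siRNA-1 libraries. The groups did not overlap but lay close (98.3 ± 2.04 and 112 ± 3.46 CPM, log2 fold change 0.18, SE 0.055). The log2 fold change was 0.16 without siCTRL 1 and 0.17 without siRNA-1 replicate 2. SMAD5 (ENSG00000113658) lies at chr5:136132845-136188747 on the plus strand, and the antisense gene SMAD5-AS1 shares 610 of its exonic bases (6.75%). SMAD4, the partner of all receptor-activated SMADs, fell 1.35-fold from 45.5 ± 3.00 to 33.7 ± 1.14 CPM (adjusted p = 0.000282, edgeR). SMAD1 had a log2 fold change of 0.01 (adjusted p = 0.937) and SMAD9, with 4 to 22 counts per library, of -0.002 (adjusted p = 0.997). Per kb SMAD5 (10.9 ± 0.226 in siCTRL) was above SMAD1 (1.72 ± 0.233) and SMAD9 (0.173 ± 0.109).

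Secreted antagonists changed in both directions. Of 17 listed, 8 were tested, 3 rose, 2 fell and 3 did not pass. The 5 that passed are near the share over all genes tested (62.5%, with 31.5% as rises and 31.0% as falls). NOG (noggin), which binds BMP4 and keeps it from its receptors, fell from 72.1, 49.2 and 75.0 CPM in siCTRL to 31.6, 28.9 and 29.2 CPM in siRNA-1 libraries. The groups were apart although siCTRL 2 lay below the other controls, and the fall was 2.19-fold (log2 fold change -1.13, SE 0.13, adjusted p = 1.52e-05, edgeR). FST (follistatin), which sequesters activins and some BMPs, rose from 40.4, 34.2 and 41.9 to 73.1, 74.1 and 78.9 CPM, or 1.94-fold (adjusted p = 8.94e-07). FSTL1 rose 1.48-fold and the BMP modulator gene BMPER 1.69-fold, and TWSG1, a partner of chordin, fell 1.27-fold. NBL1 had a log2 fold change of -0.08 (adjusted p = 0.581, edgeR) and fell without siCTRL 2 (-0.26, adjusted p = 0.000171, in a range of 0.000171 to 0.994 over all settings).

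Inhibitors inside the cell and at the membrane also divided, with 4 rises, 3 falls and 2 that did not pass among 9 tested. Of all genes tested, 31.5% rose and 31.0% fell. TOB1, an antiproliferative gene whose protein binds BMP SMADs, rose 1.71-fold, SKI, a SMAD corepressor gene, rose 1.63-fold, and BAMBI, a pseudoreceptor gene, rose 1.57-fold from 11.7 ± 1.65 to 18.4 ± 1.64 CPM (adjusted p = 0.000521, edgeR). The ubiquitin ligase gene SMURF1 rose 1.53-fold, whereas its relative SMURF2 fell 1.15-fold. SKIL, the close relative of SKI, fell 1.97-fold from 27.8 ± 4.35 to 14.1 ± 0.392 CPM (adjusted p = 1.49e-05). PPM1A, a SMAD phosphatase gene, fell 1.28-fold. SMAD7, the inhibitory SMAD shared by the TGF-beta branch, had a log2 fold change of -0.19 (adjusted p = 0.205, edgeR), and of -0.34 without siCTRL 2 (adjusted p = 0.00171, in a range of 0.00171 to 0.548 over all settings). TOB2 likewise passed only without siCTRL 2 (0.18, adjusted p = 0.0207, in a range of 0.0207 to 0.525).

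Other genes listed as BMP targets changed in both directions. Of 16, 8 were tested, 1 rose and 5 fell, beside 31.5% and 31.0% of all genes tested, with a median log2 fold change of -0.94 beside 0.0059 over all genes tested. GATA2, a zinc finger transcription factor gene, rose from 6.71, 8.46 and 7.66 to 17.5, 17.4 and 20.9 CPM, or 2.45-fold (adjusted p = 3.39e-06, edgeR). SNAI2, a mesenchymal transcription factor gene, fell 2.92-fold from 61.0 ± 8.90 to 20.9 ± 1.63 CPM (adjusted p = 2.55e-07). RUNX2, a regulator of bone formation, fell 1.88-fold from 76.5 ± 1.46 to 40.7 ± 3.61 CPM, GATA3 fell 2.54-fold and the Notch and BMP target HES1 fell 1.97-fold. HEY1 fell 2.46-fold from 1.45 ± 0.602 CPM (adjusted p = 0.0135, edgeR), a call lost without siCTRL 3 (adjusted p = 0.0596) or without siRNA-1 replicate 3 (adjusted p = 0.0558), in a range of 0.000212 to 0.0596. MSX2 (log2 fold change 0.45) and DLX1 (0.33) did not pass, and MSX1, DLX5, SP7 and HAMP had 0 counts. GATA3 is also a marker of luminal breast cells, and SNAI2 and RUNX2 answer to several pathways beside BMP.

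**Figure D3:**
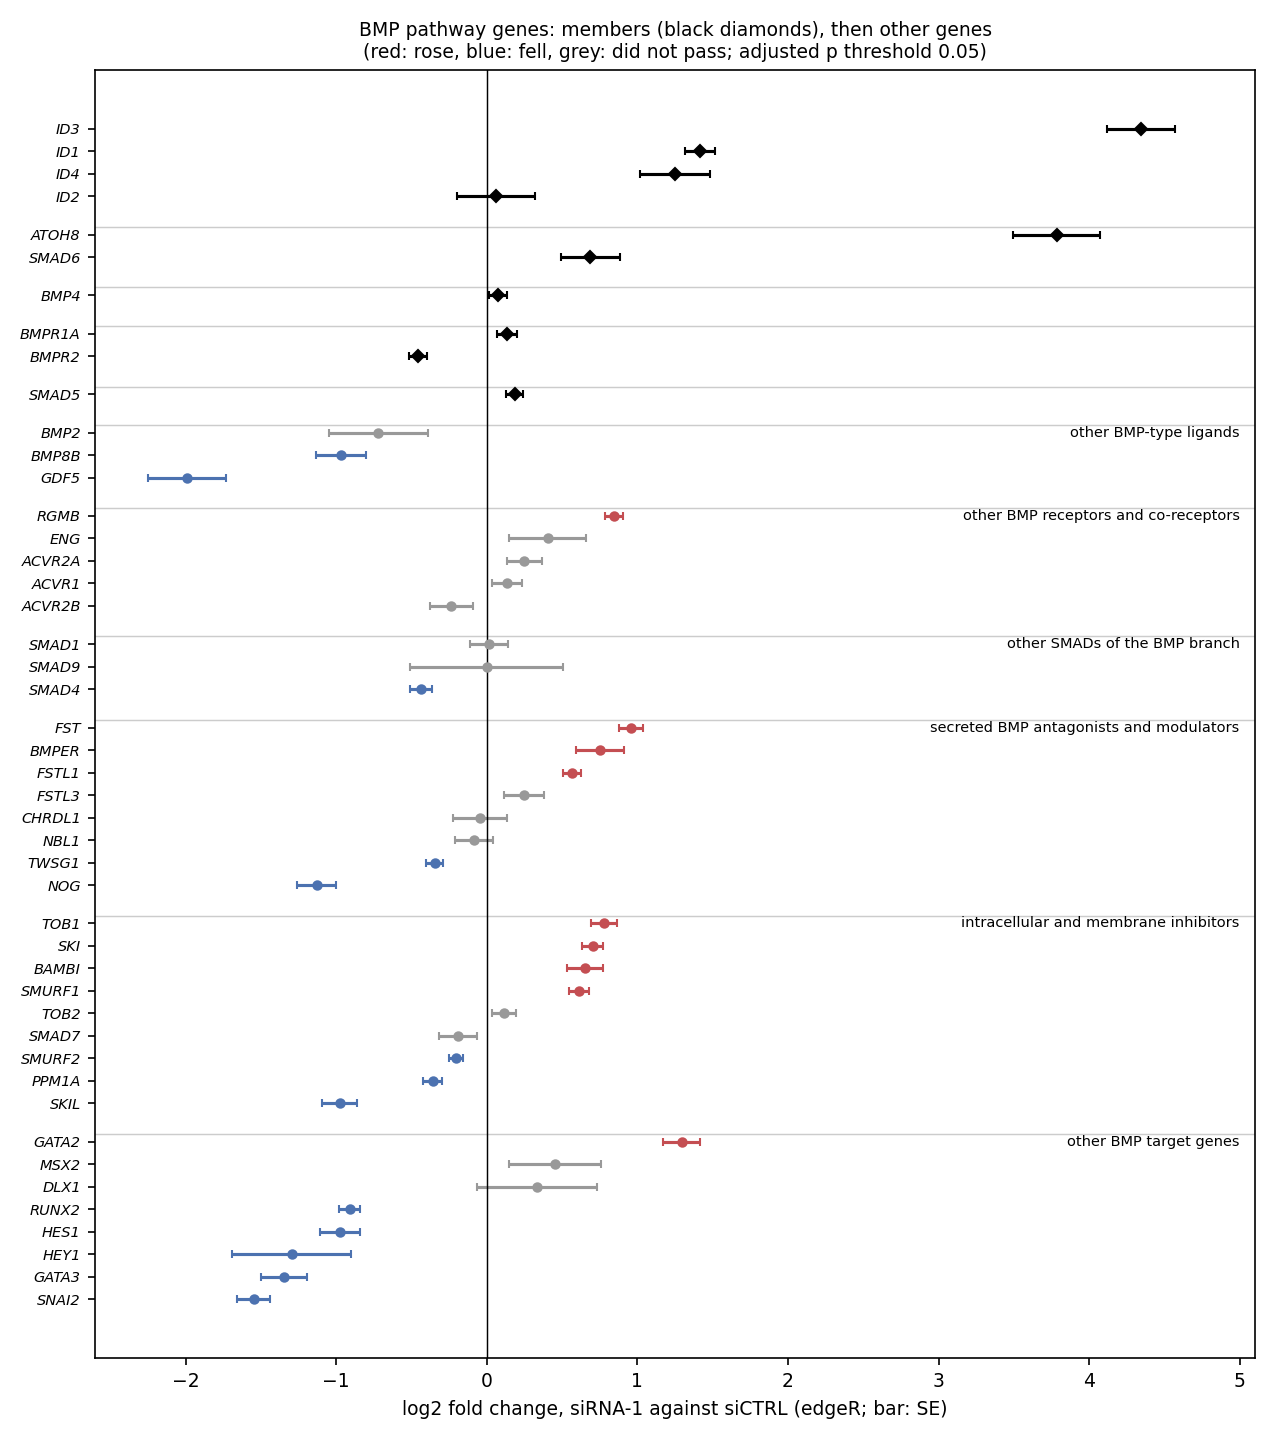
Log2 fold change of siRNA-1 against siCTRL with its SE for the 10 genes (black diamonds) and the 36 other tested genes of the BMP pathway by role. ID3 (4.34) and ATOH8 (3.78) lie far to the right, and all others spread from -1.99 (GDF5) to 1.41 (ID1) on both sides of 0.

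Over these lists together, 36 of 67 BMP pathway genes were tested, of which 9 rose, 13 fell and 14 did not pass. Over all genes 31.5% rose and 31.0% fell. Their median log2 fold change was -0.024, beside 0.0059 over all genes tested. Without siCTRL 2, in which 38 were tested, 27 passed, and so did 8635 of the 12562 genes tested in that setting. The lists were chosen with earlier results of these data known, so these counts are a description.

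Genes of the E proteins, which the ID proteins bind, were lower where they could be tested. Of 19 genes of E proteins and tissue-specific partners, 4 were tested and 3 fell, beside 31.0% of all genes tested. With 4 genes of a list chosen with earlier results known, this count is a description only. TCF3 fell from 78.5, 94.4 and 83.3 CPM in siCTRL to 46.2, 51.6 and 50.5 CPM in siRNA-1 libraries (1.73-fold, adjusted p = 4.01e-06, edgeR). TCF12 fell 1.61-fold from 70.6 ± 8.38 to 43.8 ± 1.42 CPM (adjusted p = 2.09e-05), and the haematopoietic factor gene LYL1 fell 3.28-fold from 2.03 ± 0.312 CPM. MESP1 had a log2 fold change of 0.20 (adjusted p = 0.339, not passed), and the third E protein gene, TCF4, had at most 10 counts in a library and was not tested. Among inhibitors of cyclin-dependent kinases that E proteins induce, CDKN2A and CDKN2B had 0 counts, and CDKN1C (log2 fold change -0.14, adjusted p = 0.361) and CDKN1A (-0.12, adjusted p = 0.157, edgeR) did not pass. CDKN1A fell without siCTRL 2 (-0.20, adjusted p = 0.000138, in a range of 0.000138 to 0.38).

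Targets of the other SMAD branch, which TGF-beta drives through SMAD2 and SMAD3, were also read in the same libraries. All 10 listed genes passed, 8 as falls and 2 as rises, beside 31.0% and 31.5% of all genes tested. Their median log2 fold change was -0.91 beside 0.0059. The list was chosen with earlier results of these data known, so its count and median are a description from which nothing is read about the branch. CCN2, which encodes a matricellular protein, fell 3.82-fold from 328 ± 36.6 to 85.9 ± 3.00 CPM (adjusted p = 3.84e-09, edgeR). The ligand gene TGFB2 fell 2.72-fold, TGFBI 2.60-fold and BHLHE40 2.06-fold. COL1A1 (3.46-fold) and ITGA5 (1.51-fold) rose. CCN2 is also a known target of YAP.

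**Figure D4:**
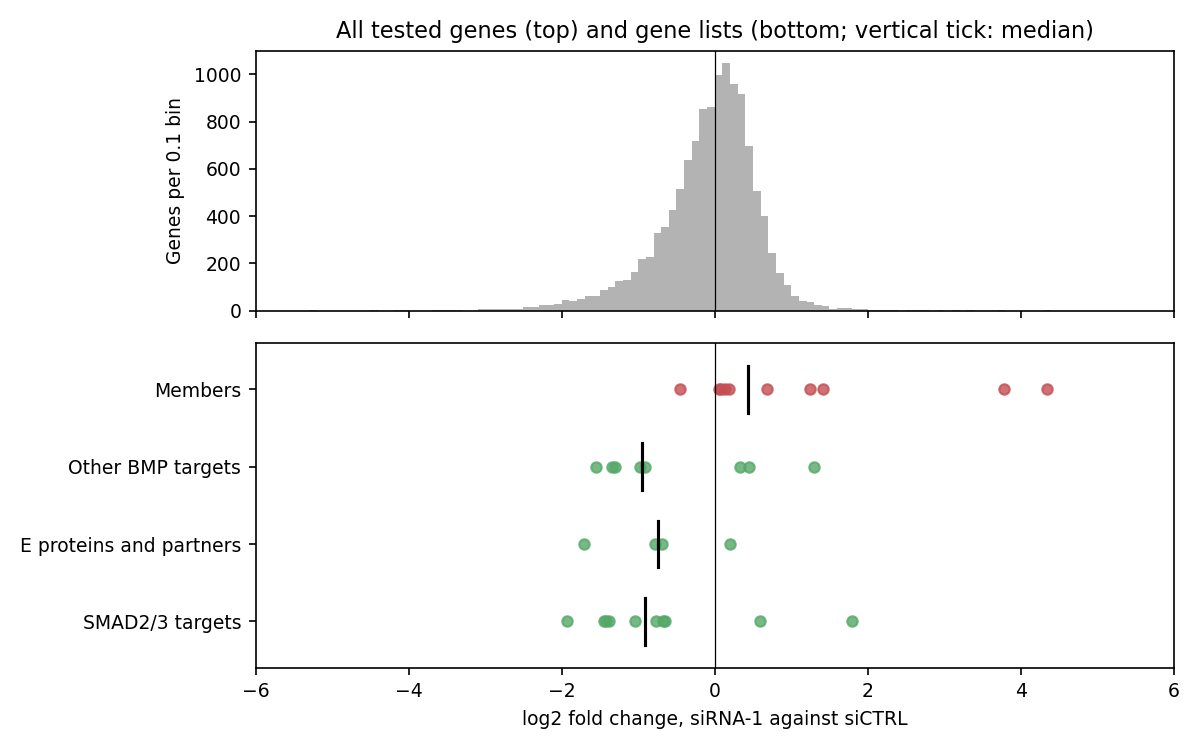
Top, number of genes per bin of log2 fold change over all 12440 tested genes. Bottom, the 10 genes (red) and 3 lists (green) with their medians as vertical ticks: 0.44 for the 10 genes, -0.94 for other BMP targets, -0.74 for E proteins and partners and -0.91 for SMAD2/3 targets.

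The genes whose pattern over the 6 libraries was most like ID3 were sought by the root mean square difference of log2 CPM, each gene taken relative to its siCTRL mean. ATOH8 was the nearest (0.83 on the log2 scale), followed by IL24, a cytokine gene (0.84), and SCN3A, a sodium channel gene (1.18). SCN3A had only 0.197 CPM in siCTRL, below the floor of 3 counts. For ID1 the nearest were FAM72D (0.090), the histone methyltransferase gene DOT1L (0.11) and GATA2 (0.12). FAM72D has near-identical copies, and its reads are uncertain. For ID2 they were MAK (0.079), AKR1E2 (0.13) and NLGN4X (0.14), with log2 fold changes of 0.08, -0.04 and 0.01. For a gene with a large rise such as ID3, the distance follows mainly the size of the fold change. ATOH8, picked with its difference known, was therefore near ID3 largely by construction. These distances describe 6 libraries in 2 groups, have no test and say nothing on shared regulation.

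Within groups, 6 of the 10 genes were highest in siRNA-1 replicate 3, among them ID1, ID2, ID3, ATOH8 and SMAD6, and BMP4 was the other. The 10 genes lay a median of 0.16 (log2) above the other siRNA-1 libraries there, and 0.019 above the other controls in siCTRL 2. Variation was widest for the low genes, with a coefficient of variation in siCTRL of 50.8% for ID3 and 40.2% for ATOH8, against 1.62% for BMPR2 and 2.08% for SMAD5.

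ID genes and ATOH8 are also expressed in endothelial cells, so markers of other cell types were read in the same libraries. All 6 libraries are labelled as MDA-MB-231 cells, so reads of these markers can come from the line itself. In bulk RNA, fewer cells of a type and less RNA per cell cannot be told apart. Of all genes tested 31.0% fell, and each marker list had only 1 to 3 tested genes, so nothing is read from its count. Of 6 endothelial markers 2 were tested and both fell (PECAM1 and KDR), their summed level was 16.0 to 17.9 CPM in siCTRL and 8.52 to 11.0 CPM in siRNA-1 libraries, and CDH5 had 0 counts throughout. Of 5 haematopoietic markers 1 was tested and fell (CD14), with 14.6 to 19.4 and 7.47 to 8.74 CPM summed, and CD3E and HBB had 0 counts. CD14 made up most of that sum, with means of 17.3 CPM in siCTRL and 7.71 CPM in siRNA-1 libraries. Of 6 luminal markers 3 were tested and all fell, with 345 to 373 and 227 to 242 CPM summed. Most of the luminal sum was KRT18, with means of 327 CPM in siCTRL and 222 CPM in siRNA-1 libraries. PTPRC, also on the haematopoietic list, was below the filter with at most 13 counts in a library. Its means were 0.336 ± 0.201 CPM in siCTRL and 0.516 ± 0.305 CPM in siRNA-1 libraries, and the groups overlapped. The part of other cells in the results was not tested.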

How the data were processed

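Total RNA of 6 cultures of MDA-MB-231 was sequenced (NEBNext Ultra library kit, per the labels). The deposited values are raw counts per Ensembl gene, made by the authors with HTSeq on hg38, per the submitters' processing notes, which also name Trimmomatic, STAR and kallisto. Tool versions, gene annotation and strand use remain not given in the sources used here. All 20042 identifiers were matched to a symbol without their version. Positions and exon lengths come from GENCODE release 29.

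The filter was filterByExpr of edgeR 4.0.16 (R 4.3.3; minimum count 10, minimum total 15). Scaling used TMM factors (trimmed mean of M values), and a quasi-likelihood F test (two-sided, no covariate beside the group) was adjusted over 12440 genes. The SE is the log2 fold change over the root of F. Simulated counts with known changes were run through these steps first.

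The members, lists and naming rule were chosen with earlier results of these data known. The rule named all 10 genes, each other listed gene that passed with a log2 fold change beyond 1 in size, the 3 highest of each list, and the 3 nearest patterns to ID1, ID2 and ID3 (prior count 2). A gene that the rule named is not reported here. Further genes were picked from their lists with values in view. Alternatives were DESeq2 1.42.0 (size factors and Wald test), limma-voom (limma 3.58.1), no scaling, other filters, a threshold of 0.01, other prior counts, a replicate block and leaving out each library. Groups of 3 were too small for the outlier check.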

Additional observations from a re-analysis of the deposited data

How the results depend on the processing

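Of the 10 genes, 7 passed in each setting over all libraries except 2: at a mean of at least 100 counts, 6 were tested and 4 passed, since ID2, ID4, ATOH8 and SMAD6 were left out by the filter, and at a threshold of 0.01, 6 passed. Leaving out single libraries gave 6 to 8. Other BMP pathway genes that passed numbered 22 in the main fit, 19 to 25 in other settings over all libraries and 22 to 27 without single ones. E proteins and partners numbered 3, 2 to 3 and 3 to 4 in the same order, and SMAD2/3 targets 10 throughout. All genes that passed numbered 7772, 6206 to 7939 and 6848 to 8635. The low ends over all libraries came from the filter at a mean of 100 counts or the threshold of 0.01. These counts for the 10 genes are a description, since the choice of genes used this contrast. Of 62 genes followed, 5 changed sign in some setting and 0 of these had passed the test. They were ID2 (-0.16 without siCTRL 3, -0.085 without siRNA-1 replicate 3, up to 0.32), SMAD1 (-0.024 at a mean of 100 counts, -0.10 without siCTRL 2, -0.032 without siRNA-1 replicate 1, up to 0.090), CHRDL1 (0.19 without siCTRL 2, 0.070 without siRNA-1 replicate 1, down to -0.19) and NBL1 (0.0012 without siCTRL 3, down to -0.26). SMAD9 was the fifth: 0.033 with no scaling, 0.0094 with no filter, 0.13 with limma-voom, 0.019 with the replicate block, 0.45 without siCTRL 1, 0.096 without siCTRL 2 0.33 without siRNA-1 replicate 3 and -0.43 without siCTRL 3. The cause was not tested. The deviations of same-numbered libraries from their group means correlated at -0.078 to 0.067 over genes. Those of differently numbered libraries correlated at -0.095 to 0.115. Whether same-numbered cultures were handled together is not stated and was not tested. With the replicate block, 7 of the 10 genes, 22 pathway genes, 3 partners, 10 SMAD2/3 targets and 7535 genes in all passed. Depth limits ID3 and ATOH8 in controls, which rest on 35 and 15 counts over 3 libraries. The nearest 3 genes to ID1, ID2 and ID3 were the same 3 at a prior count of 0.5.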
